A study of Homo sapiens with 6 samples.

Results

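The genes described here encode 35 RNA-binding splicing proteins, 21 of them hnRNP, PCBP or PTB proteins, 12 of them SR proteins (SRSF1 to SRSF12) and 2 of them the SR-like proteins TRA2A and TRA2B. They were chosen by symbol, with earlier results of these data known, and all 35 were found among the 19892 genes of the deposited table. The cells were HEK293, an established human line from embryonic kidney, either wild type or carrying a CNBP knockout made with CRISPR-Cas9. RNA-seq libraries were made from total RNA, 3 per group, and the table gives 1 FPKM value (fragments per kilobase of transcript, scaled to the mapped fragments) per gene and group. The labels do not say if those 3 libraries are from different cultures or clones. With 1 value per group, there is no SD, SE or p-value for any result, and no difference could be compared with the spread of replicates.

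Heterogeneous nuclear ribonucleoproteins (hnRNPs) coat nascent transcripts and often repress nearby splice sites, while SR proteins bind exonic enhancers through RNA recognition motifs and recruit the spliceosome through domains rich in arginine and serine. HNRNPF and the HNRNPH proteins form a family of their own: their quasi-RRM domains grip runs of G in single-stranded RNA. Many genes of both families also limit their own output by splicing in exons that send the transcript to nonsense-mediated decay. CNBP is a zinc-knuckle protein that binds G-rich RNA, and the series title concerns such elements in coding sequences, so the question asked here was whether mRNAs of the other G-tract binders differed from those of the remaining hnRNPs and of the SR proteins. Log2 ratios below are knockout over wild type, so that a negative one is lower in the knockout column.

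The coding sequences are shown because they hold the motif TGGAG, the core of the G-rich element described for CNBP. Each line is the 60-base stretch with the most such motifs (then the most G) in the longest coding sequence of the gene in GENCODE release 29, on the coding strand from 5′ to 3′, with each TGGAG in capitals. The first 4 are the G-tract binders. HNRNPA2B1 and HNRNPA3 stand for the densest members and the lowest ratio, TRA2A for an SR-like protein with the motif, and SRSF3 for an SR protein without it.
HNRNPF: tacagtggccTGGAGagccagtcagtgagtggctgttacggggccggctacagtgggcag
HNRNPH1: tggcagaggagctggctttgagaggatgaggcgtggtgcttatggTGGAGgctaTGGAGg
HNRNPH2: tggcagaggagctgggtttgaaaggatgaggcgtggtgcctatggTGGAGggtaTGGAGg
HNRNPH3: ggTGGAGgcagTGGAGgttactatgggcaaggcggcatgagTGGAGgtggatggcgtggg
HNRNPA2B1: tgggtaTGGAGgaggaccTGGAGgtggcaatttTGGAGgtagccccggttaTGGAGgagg
HNRNPA3: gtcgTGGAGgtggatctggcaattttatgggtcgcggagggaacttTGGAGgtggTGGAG
TRA2A: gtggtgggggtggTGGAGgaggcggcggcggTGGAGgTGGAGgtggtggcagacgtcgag
SRSF3: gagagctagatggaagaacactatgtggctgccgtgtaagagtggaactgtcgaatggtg
The stretches of HNRNPH1 and HNRNPH2 share 56 of 60 bases and the same pair of motifs, while HNRNPH3 holds 3 motifs and HNRNPA2B1 holds 4.

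Few members lay past 1.2-fold or 1.5-fold, and few genes of at least 20 FPKM did. SRSF8, listed at 0 in both columns, has no ratio. Of 34 members with a value above 0, none was higher or lower by 1.5-fold, none was higher by 1.2-fold, and HNRNPA3 was the single member lower by 1.2-fold or more. Over all 13219 genes compared (at least 1 FPKM in one group and above 0 in both), 1.48% were higher and 2.78% lower by 1.5-fold, and 8.62% were higher and 13.2% lower by 1.2-fold. Log2 ratios of all genes compared had a central 95% from -0.60 to 0.47, against -0.38 to 0.34 for genes of at least 20 FPKM, and 33 of the 34 members reached that level in one group. Among the 6068 genes at that level, 0.28% were higher and 0.643% lower by 1.5-fold, and 5.19% were higher and 7.09% lower by 1.2-fold. The members' median log2 ratio was 0.00, with 17 above and 17 below 0, against -0.01 over all genes compared and 0.01 over the abundant ones.

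At 1.1-fold, a threshold chosen after the values were seen, 6 of 34 members (17.6%) were higher and 11 (32.4%) lower. Over all genes compared, 22.1% were higher and 26.5% lower by that fold, and among genes of at least 20 FPKM 19.8% and 19.4%. The share of higher members was thus near or under the background, and the share of lower members was above both backgrounds, in a difference that was not tested. The 11 lower members were HNRNPH1, HNRNPH2, HNRNPH3, HNRNPA1, HNRNPA2B1, HNRNPA3, HNRNPD, HNRNPM, SRSF1, SRSF5 and SRSF9. Higher by this fold were HNRNPF, HNRNPA0, PCBP2, HNRNPUL2, SRSF10 and TRA2B.

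**Figure D1:**
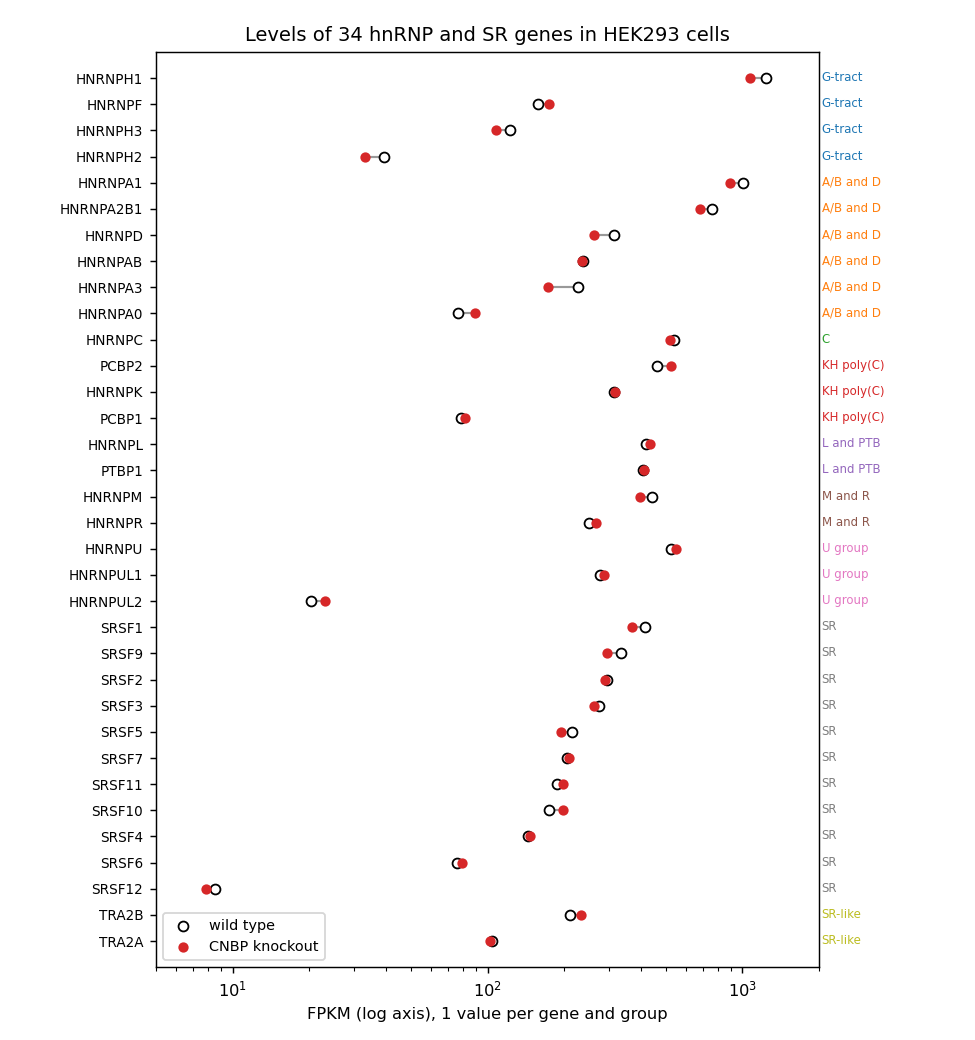
FPKM of the 34 members above 0 on a log axis, 1 open circle for wild type and 1 filled circle for CNBP knockout per gene, grouped by protein class and ordered by wild-type level within it. The pairs of circles nearly touch for most genes, with HNRNPA3 (227 and 173 FPKM) showing the widest gap.

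Levels of the members spanned a wide range in wild-type cells. HNRNPH1 was the most abundant at 1236 FPKM, ranked 47 of the 13219 genes compared, followed by HNRNPA1 at 1009 FPKM and HNRNPA2B1 at 759 FPKM. The median member stood at 244 FPKM. At the low end were SRSF12 with 8.50 FPKM, HNRNPUL2 with 20.2 FPKM and HNRNPH2 with 39.1 FPKM. SRSF8, a retrogene copy related to SRSF2, was listed at 0 in both columns. Genes that every cell uses, among them the tri-snRNP gene PRPF31, were also listed at 0, so the listed 0 of SRSF8 says nothing of its expression.

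The 4 G-tract binders were split, with the HNRNPH genes lower and HNRNPF higher in the knockout column. HNRNPH1, the main family member by level and a regulator that binds G runs near splice sites, had 1236 FPKM in the wild-type column against 1071 in the knockout column, or -0.21 as a log2 ratio. HNRNPH2, its X-linked close relative, had 39.1 and 33.1 FPKM (-0.24). HNRNPH3, a shorter paralog, had 122 and 108 FPKM (-0.18). It overlaps PBLD (-0.12) and RUFY2 (0.16) on the opposite strand, and how reads were assigned there was not tested. In contrast to the HNRNPH genes, HNRNPF, which binds the same G runs, had 158 and 175 FPKM (0.15). All 4 lay past 1.1-fold, 3 lower and 1 higher, against 26.5% lower and 22.1% higher over all genes compared. None lay past 1.2-fold, against 13.2% lower and 8.62% higher. Among genes of at least 20 FPKM, 19.4% were lower and 19.8% higher by 1.1-fold, and 7.09% and 5.19% by 1.2-fold.

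As a group, the G-tract binders had a median log2 ratio of -0.19, against 0.02 over the 30 other members with a ratio, a difference of -0.21. The 17 other hnRNP, PCBP and PTB members had a median of 0.02 and the 11 SR members one of -0.03, from which the G-tract binders differed by -0.17. Their ratios lay inside the range of the other members, which ran from -0.40 to 0.22. The 4 genes summed to 1555 FPKM in wild-type and 1387 FPKM in knockout cells (-0.16), most of it HNRNPH1. With means in place of medians, the G-tract binders differed from the other members by -0.10.

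HNRNPH2 lay near its genomic neighbours, whereas the other G-tract binders did not. The 20 genes nearest to HNRNPH2 on the X chromosome had a median log2 ratio of -0.23, close to its own -0.24, and the difference was -0.01 once that median was taken off. HNRNPH2 also lies within the readthrough gene RPL36A-HNRNPH2 (2.98 and 3.31 FPKM) on the same strand, which makes its count uncertain, and the nearby ribosomal protein gene RPL36A had 1493 and 1195 FPKM (-0.32). With the neighbours' median taken off, HNRNPH1 had a log2 ratio of -0.16, HNRNPH3 of -0.12 and HNRNPF of 0.14. The neighbours of these 3 had medians of -0.04, -0.05 and 0.00. On that scale the G-tract median was -0.07 and its difference from the other members -0.06. Over the 34 members, Spearman's rho between a member's ratio and the median of its neighbours was 0.22, and 5 of 34 had neighbours beyond 0.1 either way. Of these 5, HNRNPH2 and TRA2B had ratios close to their neighbours', while HNRNPC, HNRNPK and SRSF3 were nearer to 0 than theirs. Taking the neighbours off turned the sign of 5 members with ratios close to 0, HNRNPC, HNRNPK, HNRNPL, SRSF3 and SRSF4. The part that place plays in the ratios was not tested.

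HNRNPH1 and HNRNPH2 are close paralogs. Their coding sequences had 87.1% of aligned bases in common, and wild-type HNRNPH1 stood 31.6-fold above HNRNPH2. Whether reads were split between them was not tested, so the level of HNRNPH2 is uncertain. GENCODE lists 3 pseudogenes named after HNRNPH1, 1 after HNRNPF and 1 after HNRNPH3, and whether reads were shared with them was not tested. HNRNPF had 77.7% of aligned bases in common with HNRNPH1, and HNRNPH3 had 72.5%. The ratio of HNRNPF to HNRNPH1 levels went from 0.128 in wild type to 0.163 in knockout.

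**Figure D2:**
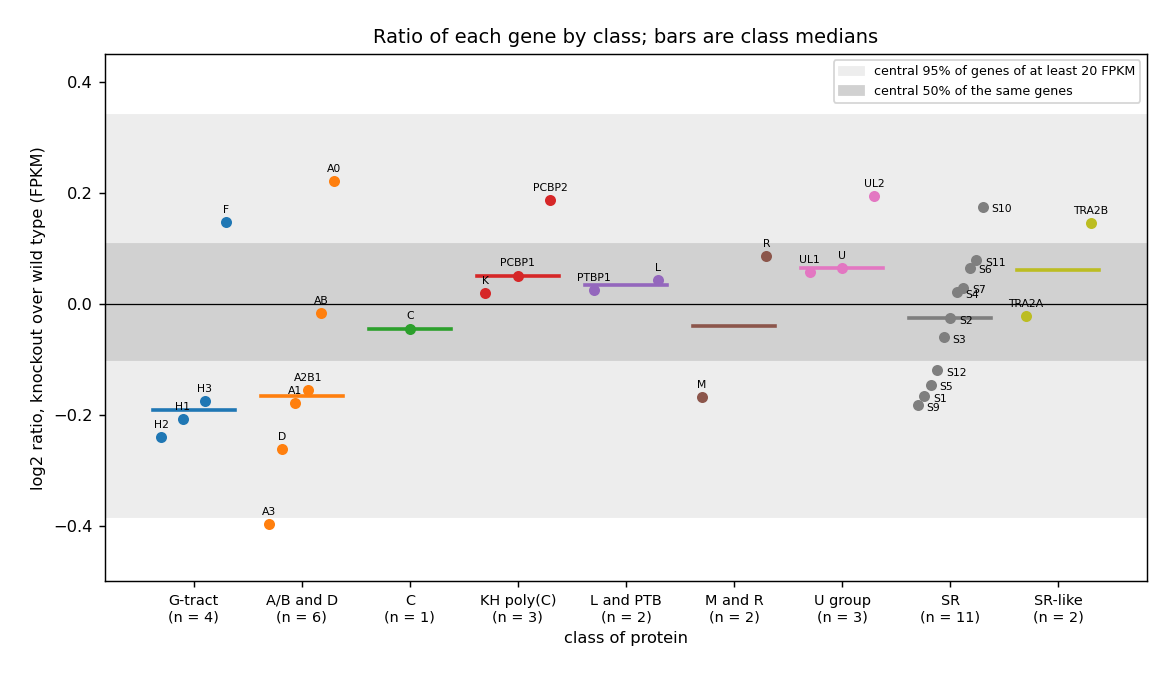
Log2 ratio of knockout over wild-type FPKM of each of 34 members (points) by protein class, with class medians as bars, names shortened (H1 for HNRNPH1, S1 for SRSF1) and grey bands for the central 50% and 95% of genes of at least 20 FPKM. The G-tract class (median -0.19) and the A/B and D class (-0.17) lie lowest, with HNRNPF and HNRNPA0 above 0 in each.

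The A/B and D proteins, which carry a pair of RNA recognition motifs and mostly a glycine-rich tail, had the next lowest median after the G-tract binders among classes of 3 or more genes, -0.17 over 6 genes. HNRNPA3 had 227 and 173 FPKM (-0.40), which is 1.32-fold lower. It lay just below the central 95% of genes of at least 20 FPKM. HNRNPD, also called AUF1 and known for binding AU-rich elements that control mRNA decay, had 314 and 262 FPKM (-0.26), which is 1.199-fold and just under the 1.2-fold threshold.

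HNRNPA1, the classical repressor that opposes SRSF1 at many exons, had 1009 and 892 FPKM (-0.18). HNRNPA2B1, which acts in splicing and in RNA transport, had 759 and 682 FPKM (-0.16). The other 2 of the class stood apart from these 4. HNRNPAB had 238 and 235 FPKM (-0.02), and the intronless HNRNPA0 had 76.5 and 89.2 FPKM (0.22), the highest ratio of all members. GENCODE lists 75 pseudogenes named after HNRNPA1 and 16 named after HNRNPA3, and whether reads were shared with them was not tested, so both values are uncertain. HNRNPA2B1 overlaps CBX3 (0.03) and NFE2L3 (0.12) on the opposite strand, and neither had a negative ratio.

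The remaining hnRNP classes lay near 0. HNRNPC, which binds U tracts and packages long transcripts, had 537 and 521 FPKM (-0.04). The KH-domain proteins that bind C-rich RNA had ratios above 0. HNRNPK had 313 and 317 FPKM (0.02), which became -0.09 with its neighbours taken off, PCBP1 had 79.1 and 81.9 FPKM (0.05), and PCBP2 had 463 and 527 FPKM (0.19). PCBP1 is an intronless gene whose coding sequence shares 83.5% of aligned bases with PCBP2, and PCBP2 overlaps MAP3K12 on the opposite strand.

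HNRNPL, which binds CA repeats, had 420.3 and 433 FPKM (0.04), and PTBP1, which binds CU-rich tracts and represses neuronal exons, had 406 and 413 FPKM (0.02). HNRNPM had 444 and 395 FPKM (-0.17) and was the lowest hnRNP outside the G-tract and the A/B and D classes. HNRNPR had 251 and 266 FPKM (0.09). Members of the U group, large proteins that bind chromatin and RNA, were all above 0, with HNRNPU at 525 and 549 FPKM (0.06), HNRNPUL1 at 276 and 287 FPKM (0.06) and HNRNPUL2 at 20.2 and 23.1 FPKM (0.19). HNRNPUL2 shares its strand with the readthrough HNRNPUL2-BSCL2 (14.2 and 12.6 FPKM), which makes its count uncertain.

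SR proteins lay on both sides of 0, with 5 of 11 above and 6 below and a range from -0.18 to 0.18. By 1.1-fold, 3 were lower and 1 was higher. Over all genes compared, 26.5% were lower and 22.1% higher by that fold, and among those of at least 20 FPKM 19.4% and 19.8%. The lowest pair were the closely related SRSF1 and SRSF9: SRSF1, the founding member of the family, had 415 and 369 FPKM (-0.17), and SRSF9 had 335 and 295 FPKM (-0.18). SRSF5 had 215 and 194 FPKM (-0.15). SRSF12, the least abundant, had 8.50 and 7.82 FPKM (-0.12). SRSF1, SRSF5 and SRSF9 lay below the lower quartile of genes of at least 20 FPKM, which was -0.10. Over all genes compared the lower quartile was -0.15, and SRSF12, which is under 20 FPKM, lay above it.

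SRSF3, a small SR protein that also acts in mRNA export, had 273 and 262 FPKM (-0.06), and SRSF2, which binds both C-rich and G-rich exonic elements, had 296 and 290.3 FPKM (-0.03). The 20 genes nearest to SRSF3 on chromosome 6 had a median of -0.19, lower than its own ratio. SRSF4 had 145 and 147 FPKM (0.02), SRSF7 had 205 and 209 FPKM (0.03) and SRSF6 had 76.1 and 79.7 FPKM (0.06). SRSF11 had 187 and 198 FPKM (0.08). SRSF10, which when dephosphorylated represses splicing, was the highest at 175 and 197 FPKM (0.18).

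Related SR genes did not always share a direction. SRSF10 and SRSF12 have similar coding sequences (67.0% of aligned bases in common) and differed in log2 ratio by 0.30. SRSF12 had only 8.50 FPKM in wild type, against 175 for SRSF10. With the neighbours taken off, SRSF12 had a ratio of -0.03 and SRSF10 one of 0.20. TRA2A had 104 and 102 FPKM (-0.02), while TRA2B, the more abundant SR-like protein, had 209.9 and 232 FPKM (0.15). The 20 genes nearest to TRA2B on chromosome 3 had a median of 0.14, and its ratio was 0.00 with that taken off.

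The classes also differed in their annotated transcripts. Each of the 12 SRSF genes had at least 1 transcript marked as a substrate of nonsense-mediated decay in GENCODE release 29, compared with 43.1% of the 13179 protein-coding genes compared here. Of the 17 other hnRNP, PCBP and PTB genes 12 had one, and of the G-tract binders 1 did, HNRNPH1, with 4 of its 50 transcripts. Whether a gene has such a transcript depends on how many are annotated, and HNRNPH2, HNRNPA0 and PCBP1 have only 1 each. The deposited value is 1 per gene and does not separate decay substrates from the coding transcripts.

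**Figure D3:**
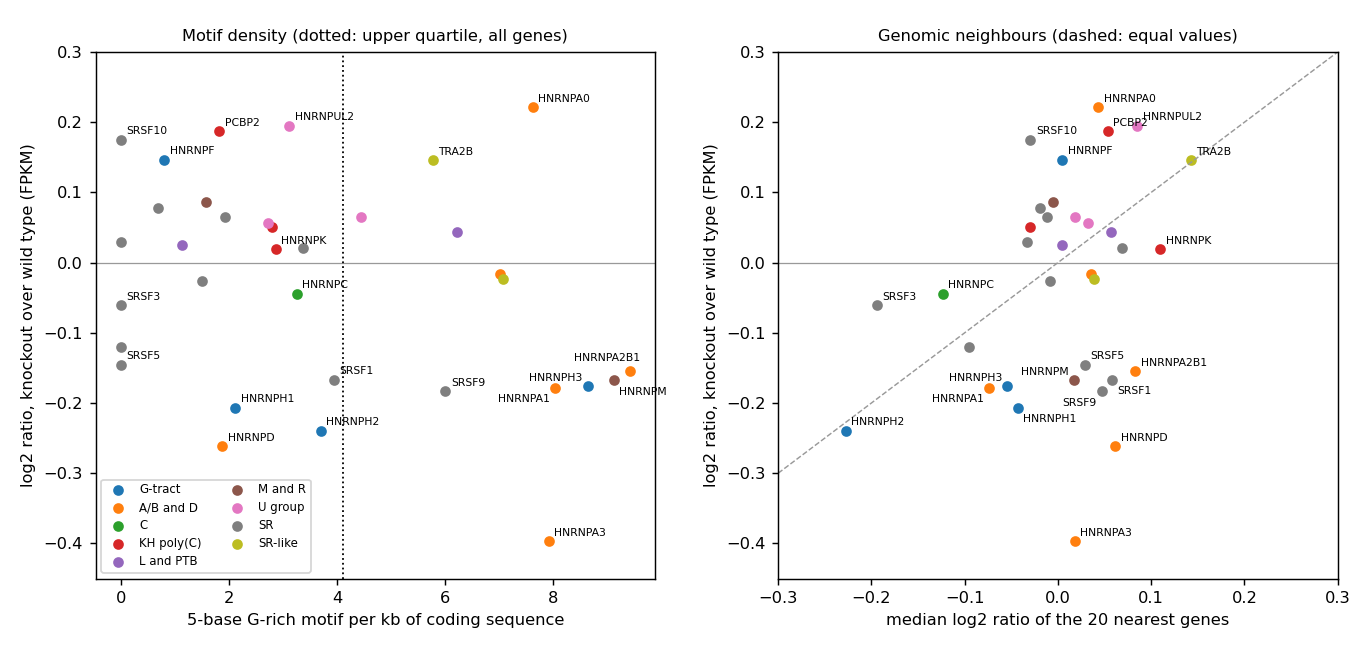
Log2 ratio of the 34 members against the number of TGGAG motifs per kb of coding sequence (left, dotted line at the upper quartile of all genes compared, 4.10 per kb) and against the median log2 ratio of the 20 nearest genes (right, dashed line of equal values), coloured by class. On the left, high motif density holds both HNRNPA3 (-0.40) and HNRNPA0 (0.22), and on the right HNRNPH2 and TRA2B lie near the line, while HNRNPC, HNRNPK and SRSF3 are nearer to 0 than their neighbours.

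Motif density differed widely among the members. HNRNPA2B1 had 9.42 TGGAG motifs per kb of coding sequence, HNRNPM 9.12, HNRNPH3 8.65, HNRNPA1 8.04, HNRNPA3 7.92 and HNRNPA0 7.63, against a median of 2.84 over 13103 genes compared. Among the G-tract binders, HNRNPH2 had 3.70, HNRNPH1 2.11 and HNRNPF 0.801. SR genes were mostly poor in the motif, with a median of 0.344 per kb and none in SRSF3, SRSF5, SRSF7, SRSF8, SRSF10 and SRSF12. The exceptions, above the median of all genes compared, were SRSF9 with 6.01, SRSF1 with 3.94 and SRSF4 with 3.37. The motif was present in 93.2% of the coding sequences of genes compared. As background, codons for glycine begin with GG. The part of glycine-rich tails in these counts was not tested.

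Members above the upper quartile of all genes in motif density (12 genes) stood at a median of -0.09, with 8 below and 4 above 0. The 22 others had a median of 0.02, with 9 below and 13 above. Below 0 were 51.3% of all genes compared and 47.9% of those of at least 20 FPKM. Among the 12 are HNRNPA0, HNRNPA1, HNRNPA2B1, HNRNPA3 and HNRNPAB, all of the A/B and D class. The same split over all genes compared gave medians of -0.02 and 0.00. Across the 34 members, Spearman's rho between motif density and log2 ratio was -0.30 and Pearson's r was -0.31, over genes that share 1 pair of columns and are not independent. Between wild-type level and ratio, rho across the members was -0.32. The wild-type value enters both measures, which by itself favours a negative rho, so nothing is concluded from it. Median ratios in the whole table were -0.01 for all genes compared, 0.01 from 20 FPKM in one group and 0.03 from 100 FPKM. Over the 13103 genes, rho between motif density and ratio was -0.02. For the plain share of G in the coding sequence, rho with the ratio was -0.34 across the members and 0.01 over the 13103 genes. Pearson's r for that share was -0.24 across the members, against -0.31 for the motif. TGGAG is itself rich in G, so motif density and the share of G overlap and cannot be told apart here. Runs of 3 or more G, the kind of tract that HNRNPF and HNRNPH bind, had a density of 18.5 per kb in the coding sequences of the G-tract binders (median), 15.3 in those of the other hnRNP members, 9.57 in those of the SR members and 12.1 over all genes compared. Across the 34 members, rho between that density and log2 ratio was -0.18.

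Of the other genes of the splicing machinery, in 5 lists, none of the 99 with a ratio reached 1.5-fold. Over all genes compared, 1.48% were higher and 2.78% lower by that fold, and among those of at least 20 FPKM 0.28% and 0.643%. The median was 0.07 for 21 other hnRNP-related genes, with 3 higher and none lower by 1.2-fold, against 8.62% and 13.2% of all genes compared and 5.19% and 7.09% of those of at least 20 FPKM. PTBP3, a paralog of PTBP1, was the highest at 25.7 and 33.4 FPKM (0.38), and FUBP1, which binds single-stranded nucleic acid, the lowest at 160.0 and 152 FPKM (-0.08). The other 2 past 1.2-fold were PTBP2 (0.28), a neuronal paralog of PTBP1, and TIAL1 (0.33), a U-rich RNA binder. GRSF1, a quasi-RRM relative of HNRNPF and HNRNPH, had 70.4 and 67.6 FPKM (-0.06), and HNRNPDL, the paralog of HNRNPD, had 259 and 280.1 FPKM (0.11). These 4 were named after their values were seen.

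The kinases that phosphorylate SR proteins and the importins that carry them had a median of 0.03 over 11 genes. TNPO1, an importin whose best-known cargo is HNRNPA1, had 204 and 261 FPKM (0.36), and the SR kinase SRPK1 had 197 and 173 FPKM (-0.19). TNPO3, the importin of SR proteins, named after its value was seen, had 32.7 and 38.4 FPKM (0.23). The 26 SR-related genes had a median of -0.02, from SON, a speckle scaffold on chromosome 21 (256 and 205 FPKM, -0.32, nearest genes -0.18), to the splicing regulator SFSWAP (41.8 and 52.3 FPKM, 0.32). In this list 1 gene was higher and 2 were lower by 1.2-fold, against 8.62% and 13.2% of all genes compared. Among those of at least 20 FPKM the shares were 5.19% and 7.09%.

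No core spliceosome gene reached 1.2-fold, against 5.19% higher and 7.09% lower among genes of at least 20 FPKM. The median was 0.00 for the 25 U1, U2 and Sm genes, from SNRPF (-0.23), a ring subunit of the snRNPs, to SF3B1 (0.23), which contacts the branch point. By 1.1-fold, 4 of the 25 were higher and 3 lower. Over all genes compared, 22.1% were higher and 26.5% lower by that fold, and among those of at least 20 FPKM 19.8% and 19.4%. For the 16 tri-snRNP and NTC genes the median was 0.03, from SNRNP27 (-0.09) to SNRNP40 (0.15).

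**Figure D4:**
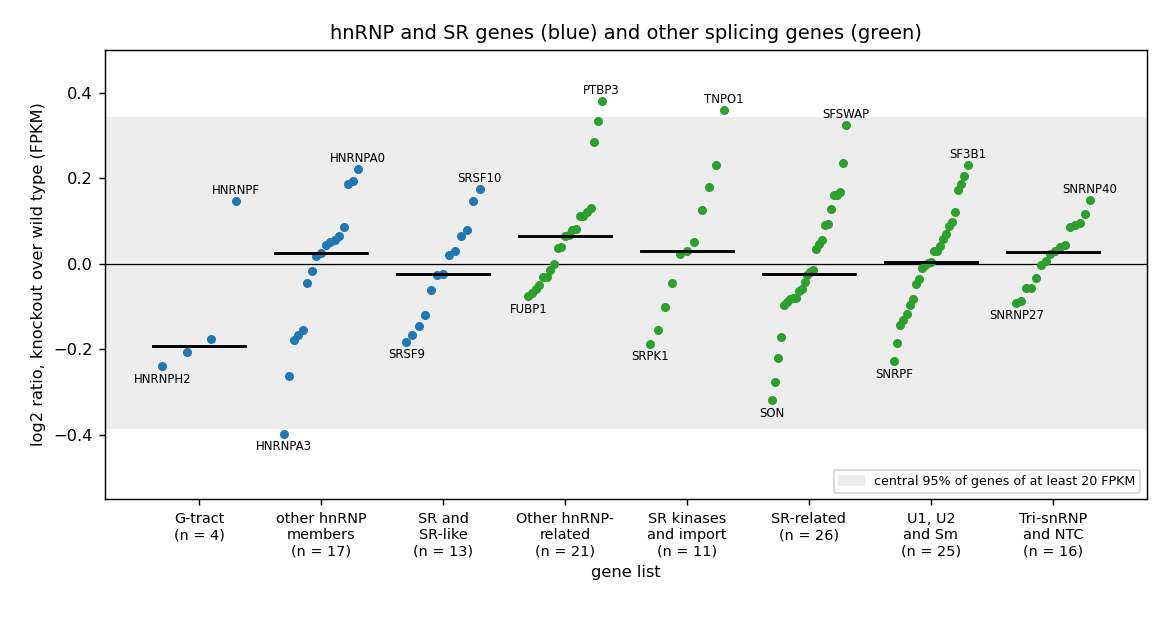
Log2 ratios of knockout over wild-type FPKM of the hnRNP and SR members (blue) and of 5 lists of other splicing genes (green), 1 point per gene, with medians as black bars and the central 95% of genes of at least 20 FPKM in grey. Medians of the green lists run from -0.02 to 0.07, and that of the 4 G-tract binders is -0.19. The other hnRNP members, at 0.02, include the A/B and D class, whose own median is -0.17.

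Facts of the table bear on every value above. CNBP itself stood at 202 FPKM in wild-type and 214 FPKM in knockout cells (0.09), so its mRNA gives no check of which column is which, and directions rest on the column names. HEK293 cells matched their known profile in part, with VIM at 510.4 FPKM, KRT8 at 123 and KRT18 at 54.0 in wild type, PAX2 at 2.71 and NEFM at 0.912, while PTPRC (0.277) and ALB (0.153) were below 1 FPKM. PECAM1 was listed at 0, which, as for SRSF8, says nothing of its expression. KRT8 had 98.4 FPKM in knockout. FPKM sums were 612366 in wild type and 612941 in knockout, and the depth of the libraries is unknown. In bulk RNA, fewer cells with a transcript and less of it per cell cannot be told apart.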

How the data were processed

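RNA of HEK293 cells was measured in 6 libraries, 3 wild type and 3 CNBP knockout, prepared, per the labels' protocols, with a kit that keeps strand. The authors' deposited table holds FPKM values, 1 per gene and group. TopHat, Cufflinks, Cuffdiff and hg19 are named, without versions, in the submitters' processing notes. The unit is not written in the table and was taken from the tools and from the range of values. For the combining of libraries and the strand setting of the counting, nothing is given in the sources used here.

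Log2 ratios were computed without a pseudocount for genes of at least 1 FPKM in one group and above 0 in both. The design has no test, and folds of 1.1, 1.2 and 1.5 served as thresholds. The members, classes and lists were chosen with earlier results of these data known. All 35 members are named; of each list, the highest and lowest ratio among genes of at least 5 FPKM, and any past 1.5-fold, are named. Symbols turned into date numbers (26) were restored from the Ensembl ID.

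GENCODE release 29, on another build than hg19, gave gene order, overlaps, transcript types and the longest coding sequence of each gene, so no coordinates are printed. Motifs were counted on the coding strand, overlaps included. For neighbours, the 20 nearest compared genes on the chromosome were used. The computation was checked on a simulated table. Alternatives were FPKM minima, pseudocounts, centring, neighbours, overlaps, class membership, means and sums. Computation used Biopython 1.88, matplotlib 3.10.9, scipy 1.17.1, pandas 2.3.3, numpy 2.4.6 and Python 3.11.15.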

Additional observations from a re-analysis of the deposited data

How the results depend on the processing

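The difference of the G-tract binders from the other members, -0.21, ran from -0.23 to -0.06 over the settings, and that from the SR members, -0.17, from -0.19 to -0.05. Both centrings, no FPKM minimum and a minimum of 5 FPKM could not move these differences, since they shift both groups alike or remove no member. They stayed from -0.23 to -0.19 and from -0.19 to -0.15 with a minimum of 20 FPKM, the pseudocounts, each G-tract gene left out in turn, GRSF1 or TRA2A and TRA2B added, and members with a same-strand overlap left out. The members with a same-strand overlap were HNRNPH2, HNRNPL, HNRNPUL2 and SRSF1. With the median of the 20 nearest genes taken off, the G-tract median was -0.067. It differed from the other members by -0.062 and from the SR members by -0.050. With means, the differences from the other and the SR members were -0.10 and -0.09, and with summed FPKM -0.12 and -0.11. With the neighbours taken off, and with the centring on genes of at least 20 FPKM, 2 members were lower by 1.2-fold in place of 1. At 1.1-fold, 6 were higher and 11 lower. The median of the other members, 0.02, was below 0 with the neighbours taken off, with means and with sums. Single members were recomputed in 5 settings, giving 170 values, of which 165 moved by less than 0.1. The centrings and pseudocounts could hardly move genes at these levels, so most of that count was fixed beforehand. Taking the neighbours off was the setting that could, and it moved HNRNPH2, HNRNPC, HNRNPK, SRSF3 and TRA2B by 0.1 or more. No paired analysis was possible because the table holds 1 value per group, and no setting leaves out a library. Counts per library were not analysed here.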

Other observations

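Of the genes that overlap or adjoin members, 2 had ratios beyond those of all members, and both were chosen after their values were seen. BSCL2, which encodes the lipid droplet protein seipin and follows HNRNPUL2 in the readthrough HNRNPUL2-BSCL2, had 10.9 and 20.7 FPKM in the wild-type and knockout columns (0.92), while the readthrough itself had a ratio of -0.17. MAP3K12, a kinase gene that overlaps PCBP2 on the opposite strand, had 8.01 and 12.1 FPKM (0.60), in the same direction as PCBP2 (0.19). Whether reads were assigned to the right gene in these loci was not tested.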
